A study of Mus musculus with 4 samples.

Results

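The stretch described here is 1 interval of mouse chromosome 2, chr2:55414071-62441645 in build mm10, in which open chromatin of Hox-/- embryonic stem cells ranked higher than that of wt cells. Peaks of 4 ATAC-seq libraries that overlapped by at least 1 bp were merged into regions, and every merged region that touched the interval is a member. There were 705 such regions of 208211 in the whole series, and 383 of them had a peak in all 4 libraries, of 122787 in the whole series. The 2 Mb below the stretch held 33 merged regions, 19 of them with a peak in all 4 libraries, and the 2 Mb above held 38, of which 23 had a peak in all 4. The limits were selected on these same ranks in an earlier scan of the 4 lists. The difference between the genotypes inside them is therefore a description, and no test of it is given.

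ATAC-seq marks open chromatin with a transposase that cuts and tags accessible DNA. Mouse embryonic stem cells, labelled only as wt or Hox-/-, gave 2 libraries of each genotype. All 4 were grown in serum-containing medium with leukaemia inhibitory factor and inhibitors of GSK-3 and of MEK1/2, without a further treatment. Neither the strain, the number of clones, nor whether replicates were separate cultures was given, so the spread between replicates may be technical. The labels do not say which Hox genes were deleted, though the Hox-/- libraries carry the letters BADC in their titles. Over the 4 Hox clusters the wt libraries had peaks in 26 to 42 merged regions per cluster, and the Hox-/- libraries in 0 to 2. The HoxD cluster lies on the same chromosome, 12.2 Mb above the upper limit of the stretch. All 9 embryonic stem cell marker genes examined had a peak near an end in every library, but so did all 4 fibroblast genes and 2 of 3 endoderm genes, so peaks at these lists do not separate the cell types. Y chromosome lines numbered 63 in each wt library against 4 and 6 in the Hox-/- libraries, and the relative depth taken from the lists was 0.640 in Hox-/- replicate 1 and 0.941 to 1 in the others. The part of these differences in the results was not tested.

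A peak in such a list stands for a place where tagged fragments pile up above the local background, most often a promoter or an enhancer. Promoters rich in CpG are open in many cell types, whereas distal elements are more cell-type specific. The stretch holds genes that embryonic stem cells are known to use, such as the type I receptor gene Acvr1 and the proteasome gene Psmd14, beside genes known from neurons or immune cells, such as Tbr1 and Ly75.

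The promoters at which the results below turn are printed first, because the stretch has starts with a large shift, starts with a small one and 1 start with the opposite sign. Each is the 250 bases before a RefSeq start of build GRCm38.p6, 5′ to 3′ on the strand of the gene. Ly75 (chr2:60383274-60383523, minus strand) had the largest shift of the stretch. Tank (chr2:61592847-61593096, plus strand) is shown at its downstream start, which had the next largest shift among the starts of protein-coding genes. Tanc1 (chr2:59611792-59612041, plus strand) is a CpG-rich start with a shift between these and the median. Kcnj3 (chr2:55435720-55435969, plus strand) is the start nearest the lower limit and Dpp4 (chr2:62412232-62412481, minus strand) the start nearest the upper limit. Capitals mark matches, on either strand, to the GC box GGGCGG, the CCAAT box, the TATA box TATAAA or the ETS core CCGGAAG.
Ly75: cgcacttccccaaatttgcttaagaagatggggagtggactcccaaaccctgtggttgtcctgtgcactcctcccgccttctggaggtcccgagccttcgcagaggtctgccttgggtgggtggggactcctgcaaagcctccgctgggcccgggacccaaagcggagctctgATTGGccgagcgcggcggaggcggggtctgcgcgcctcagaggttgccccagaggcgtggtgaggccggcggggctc
Tank: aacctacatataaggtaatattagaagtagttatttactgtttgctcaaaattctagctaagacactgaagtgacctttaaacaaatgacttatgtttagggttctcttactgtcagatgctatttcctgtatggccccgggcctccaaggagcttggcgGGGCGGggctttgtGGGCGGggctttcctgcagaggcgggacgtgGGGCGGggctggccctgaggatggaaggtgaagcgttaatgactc
Tanc1: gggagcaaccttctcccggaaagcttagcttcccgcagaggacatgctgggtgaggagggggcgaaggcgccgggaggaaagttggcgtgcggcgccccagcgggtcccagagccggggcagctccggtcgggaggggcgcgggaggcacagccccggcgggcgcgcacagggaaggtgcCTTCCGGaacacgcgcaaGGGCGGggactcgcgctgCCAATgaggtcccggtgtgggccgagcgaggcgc
Kcnj3: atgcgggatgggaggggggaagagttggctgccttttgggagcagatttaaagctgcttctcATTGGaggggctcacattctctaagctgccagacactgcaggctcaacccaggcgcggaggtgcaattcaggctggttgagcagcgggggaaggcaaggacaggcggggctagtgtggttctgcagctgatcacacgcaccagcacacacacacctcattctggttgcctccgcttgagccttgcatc
Dpp4: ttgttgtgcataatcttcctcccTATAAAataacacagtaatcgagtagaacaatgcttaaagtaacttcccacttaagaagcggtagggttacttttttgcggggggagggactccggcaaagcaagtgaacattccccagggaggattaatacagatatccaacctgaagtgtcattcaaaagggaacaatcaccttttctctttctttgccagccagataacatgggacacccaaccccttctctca
The Ly75 bases held 17 CpG and 1 CCAAT box, on the reverse strand. Those of Tank held 8 CpG and 3 GC boxes. Tanc1 had 28 CpG and 1 match each to the GC box, the CCAAT box and the ETS core. Kcnj3 had 7 CpG with 1 CCAAT box, and Dpp4 4 CpG with 1 TATA box. No single one of these motifs was in all of Ly75, Tank and Tanc1.

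Across the stretch, regions ranked higher within the Hox-/- libraries than within the wt libraries. Each of the 122787 regions called in all 4 libraries was ranked within each library by the −log10 p of its strongest peak, so that all 4 rankings have the same length. The median member stood at percentile 38.8 in wt replicate 1, 37.0 in wt replicate 2, 49.6 in Hox-/- replicate 1 and 52.4 in Hox-/- replicate 2, where 100 is the strongest. Both Hox-/- libraries were thus above both wt libraries, by more than the distance between replicates. The rank shift used from here on is the log2 ratio of the geometric mean rank in wt to that in Hox-/-, positive where the region ranked higher in Hox-/-. Its median over the 383 members was 0.36, with quartiles of 0.12 and 0.58. The 4 pairings of a wt with a Hox-/- library gave 0.32, 0.35, 0.33 and 0.34 (SD 0.0127 over the 4 pairings, which share libraries). The same ratio between the 2 wt libraries had a median of 0.00, and between the 2 Hox-/- libraries of -0.01. It was -0.06 in the lower flank, -0.05 in the upper flank, and 0.00 on the rest of chromosome 2.

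The shift was spread over most members rather than carried by a few. It was above 0 in 342 of 383 regions, or 89.3%, compared with 50.8% of all regions. Both Hox-/- ranks were better than both wt ranks in 247 members, 64.5% of them, where the same holds for 20.5% of all regions called in all 4. The reverse order, both wt ranks better, was seen in 7 members, against 20.3% of all regions. The ranks of the genotypes overlapped in the other 129. Since the limits were chosen on this contrast, these shares describe the stretch and are not evidence for it.

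**Figure D1:**
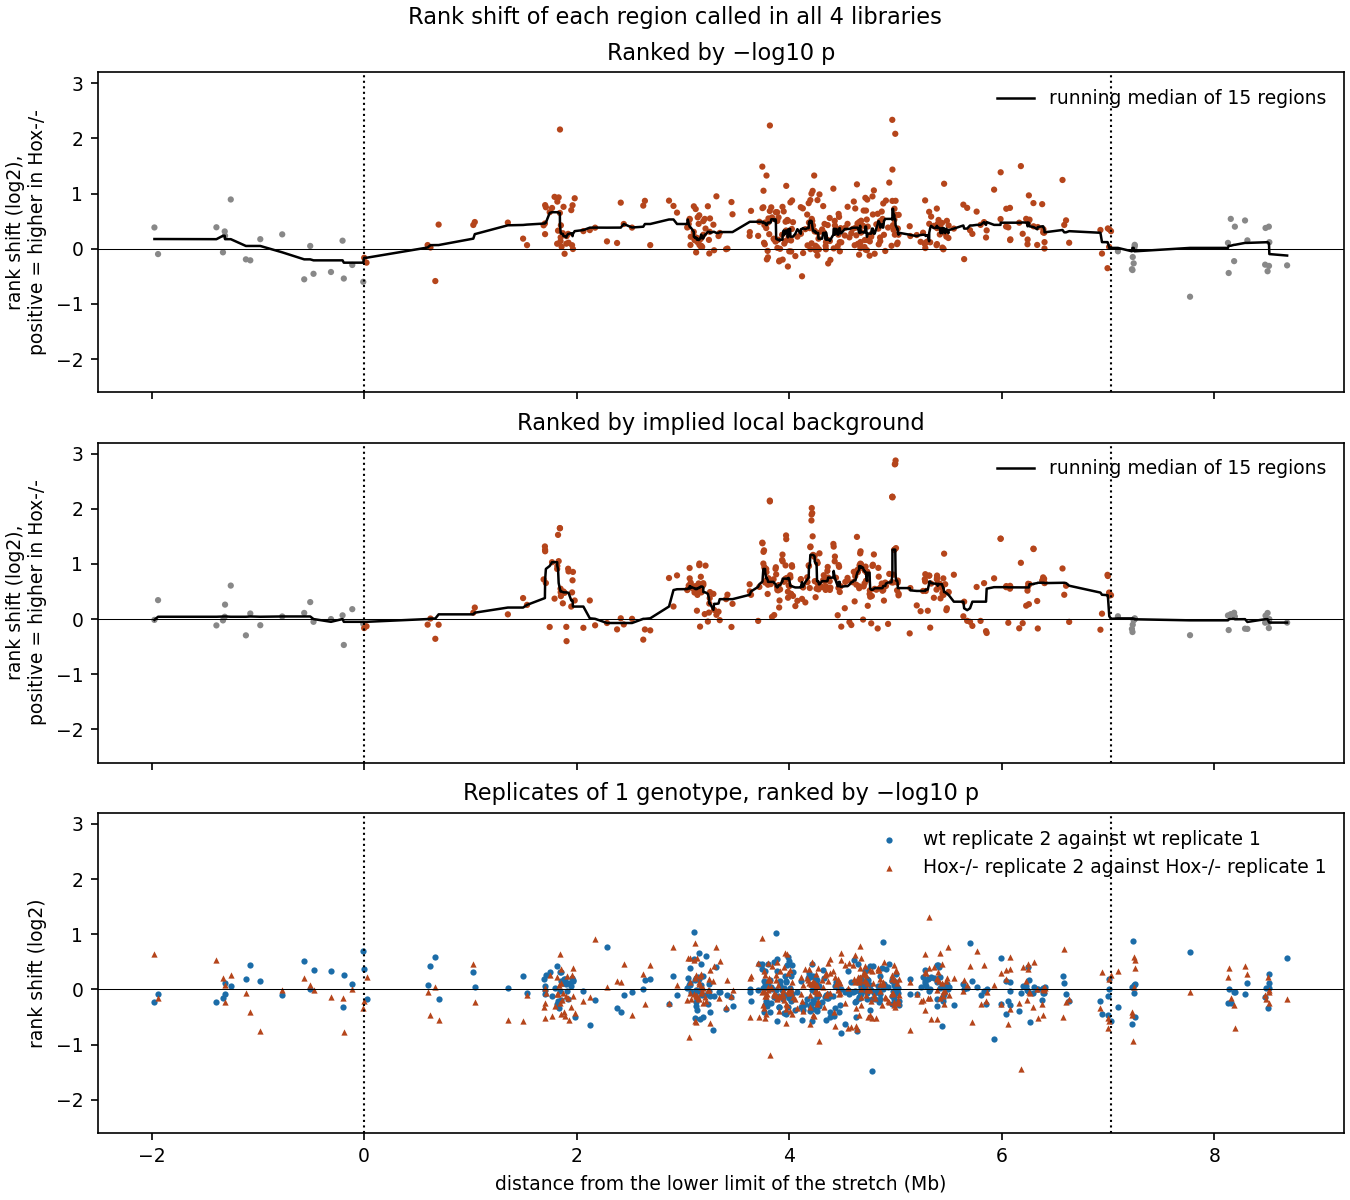
Rank shift (log2, positive where the region ranked higher in Hox-/-) of each region called in all 4 libraries against its distance from the lower limit of the stretch in Mb, with members in red, flanking regions in grey, dotted lines at both limits and a running median of 15 regions; the panels rank by −log10 p, rank by implied local background, and compare replicates of 1 genotype. The members lie mostly above 0 in the first 2 panels, with a median of 0.36 and 0.61, and around 0 in the replicate panel.

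The size of the shift depended on which property of a peak was ranked. A peak's fold over background and its p together fix, under the Poisson model that peak callers of this kind use, the fragment pileup at the summit and the local background, and in every list all of these pileups came out within 0.05 of a whole number. Ranked by fold, the median member stood at percentile 37.4 and 38.4 in wt and 45.9 and 47.3 in Hox-/-, a median shift of 0.12, with 262 of 383 members above 0. Ranked by the implied pileup, it stood at 37.0 in both wt libraries and at 53.1 and 54.4 in the Hox-/- libraries, a shift of 0.43, with 369 above 0. Ranked by the implied local background, it stood at 44.7 and 46.7 in wt and at 61.9 and 64.2 in Hox-/-, a shift of 0.61, with 341 above 0. The pileup and the background around it differed more between the genotypes than their ratio. Both Hox-/- ranks were better in 139 members by fold, against 21.3% of all regions, in 305 by pileup, against 21.0%, and in 322 by background, against 21.5%. The reverse order was seen in 39 members by fold, against 18.9% of all regions, in 4 by pileup, against 21.1%, and in 16 by background, against 22.7%. The part of the number of DNA copies in these values was not tested.

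**Figure D2:**
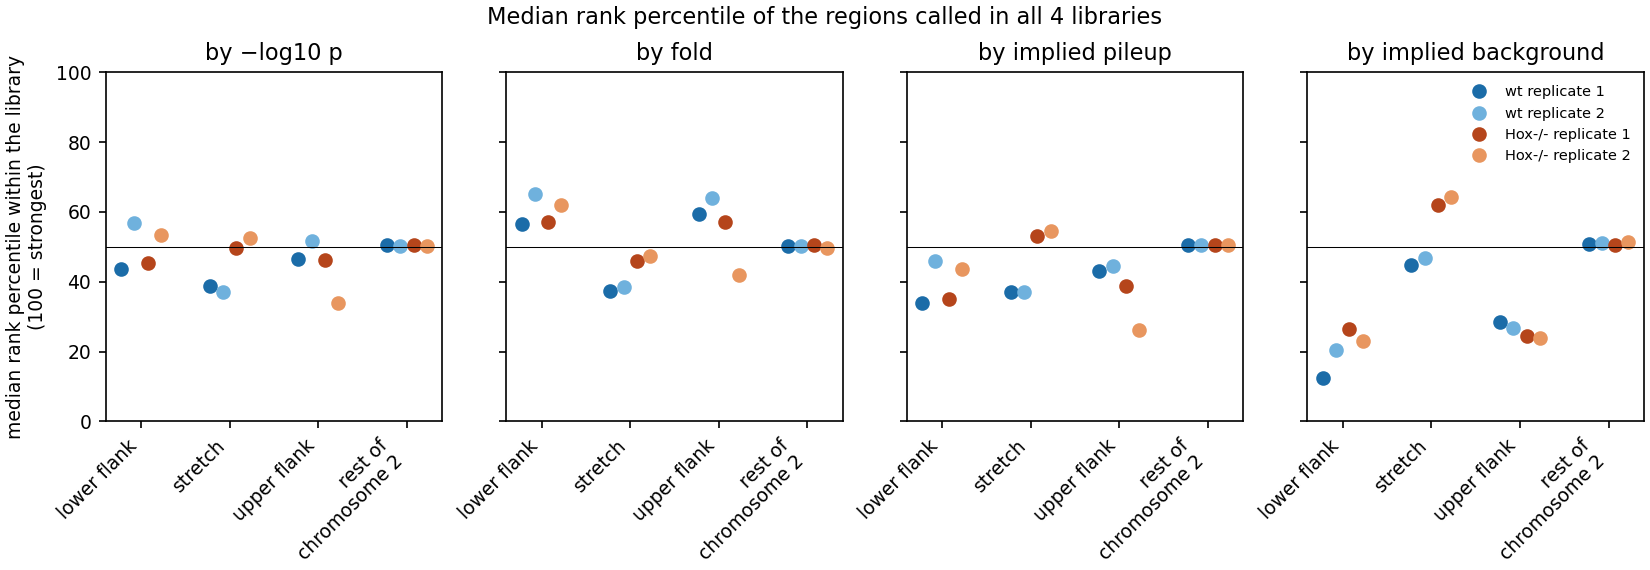
Median rank percentile within each library (100 is the strongest) of the regions called in all 4 libraries, in the lower flank, the stretch, the upper flank and the rest of chromosome 2, for 4 ways of ranking; each point is 1 library, blue for wt and red or orange for Hox-/-. In the stretch both Hox-/- points lie above both wt points in every panel, such as 45.9 and 47.3 against 37.4 and 38.4 by fold and 53.1 and 54.4 against 37.0 in both wt libraries by pileup.

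Members were divided into 4 classes at the percentiles 25, 50 and 75 of their mean background rank over the 4 libraries. In the 79 members of the lowest class, the median background shift was -0.01, but the fold shift was 0.39 and the shift by −log10 p 0.34. In the 87 members of the highest class, the background shift was 1.16, the fold shift 0.11 and the shift by −log10 p 0.54. The 91 and 126 members between them had background shifts of 0.54 and 0.65 with fold shifts of 0.07 and 0.03. In the lowest class the background ranks order values at the floor of each list, so the background shift there says nothing of a difference. All 79 of these members lay within 1% of the floor in both wt libraries, and 65 and 62 in the Hox-/- libraries. Over all 383 members, 128 and 127 lay at the floor in wt and 67 and 63 in Hox-/-, while over all ranked regions the numbers were close, 39216 and 38955 in wt and 39941 and 39670 in Hox-/-. The shift by −log10 p had a median above 0 in all 4 classes.

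Strong members had larger shifts on the log2 scale than weak ones. All ranked regions were divided by mean rank into 3 classes of equal size. The median shift was 0.63 in the strongest class (111 members), 0.39 in the middle class (129) and 0.15 in the weakest (143). Genome-wide the interquartile range of the shift fell in the same order, 0.44, 0.39 and 0.24, so the log2 scale is wider for strong regions. In percentile points the order was another, 6.33, 12.8 and 8.84. A region near the top of a list has few places above it, which limits the points of the strongest class. Both Hox-/- ranks were better in 91, 82 and 74 of these members, where the classes had 20.7%, 20.7% and 20.1% genome-wide. Divided likewise by the width of the merged region, the widest class had a median of 0.45, the middle class 0.33 and the narrowest 0.26, while in points the order was reversed, 7.76, 8.91 and 11.7.

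Lists of called peaks showed the same order. A call is a cut on the same peak significance that was ranked, and the limits were chosen on those ranks. The counts of calls therefore describe the stretch and are not separate evidence. Of the 705 merged regions, 475 (67.4%) had a peak in wt replicate 1, 485 (68.8%) in wt replicate 2, 542 (76.9%) in Hox-/- replicate 1 and 597 (84.7%) in Hox-/- replicate 2. Over all 208211 merged regions the order of the genotypes was the opposite, with 80.1% and 81.3% in wt and 72.1% and 76.4% in Hox-/-. The mean difference in the stretch was 12.7 percentage points (SD 4.58 over the 4 pairings). A peak in both Hox-/- libraries and neither wt library was listed for 41 members, or 5.82%, against 1.23% of all merged regions. A peak in both wt libraries and neither Hox-/- library was listed for 5, or 0.709%, against 3.83%. Of the 157 members called in 1 library only, 16, 25, 45 and 71 were those of wt replicate 1, wt replicate 2, Hox-/- replicate 1 and Hox-/- replicate 2. Of all merged regions, 39231 were called in 1 library only, 10731, 12129, 7204 and 9167 in the same order. A region without a listed peak may hold a weaker one, since each list ends at a −log10 q of 1.30.

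The regions called in 1 genotype only were mostly weak. The median of the worse of their ranks in the 2 libraries was 131975.5 for the 41 of Hox-/- and 154921 for the 5 of wt. Among the 41 of Hox-/-, the best rank in either library was 67052, of 150179 regions called in Hox-/- replicate 1 and 159115 in Hox-/- replicate 2. Of these 41, 31 lay within the body of a protein-coding gene and 3 within 1 kb of a gene end. Of the 383 members called in all 4 libraries, 273 lay in a gene body and 29 within 1 kb of a gene end. In both sets most regions thus lay in gene bodies and few at gene ends. The 41 regions of Hox-/- were found from chr2:55506657 to chr2:62407313. The strongest by mean rank, at chr2:61501966-61502263, lay 76294 bp from the nearest end of Tank. Of the 5 regions called in wt only, 2 lay in the body of Pkp4, 1 in that of Ccdc148, 1 in that of Kcnj3 and 1 between genes. The strongest of them, at chr2:59229309-59229563 in Pkp4, ranked 101326 and 85045 in the wt libraries.

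**Figure D3:**
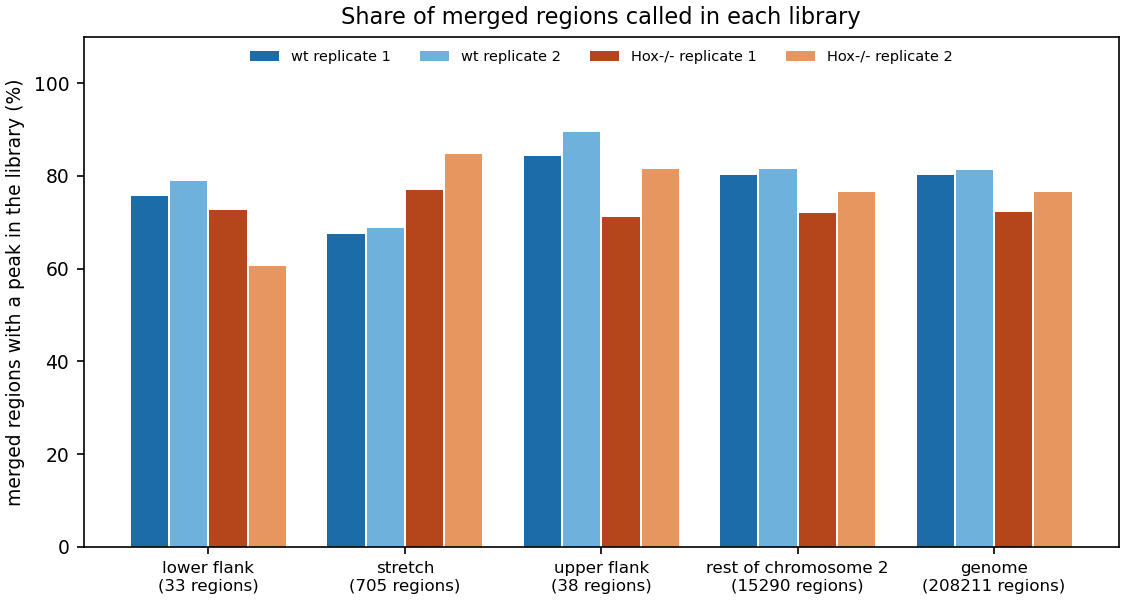
Percentage of merged regions with a listed peak in each library (bars, blue for wt and red or orange for Hox-/-) in the lower flank, the stretch, the upper flank, the rest of chromosome 2 and the whole genome. The Hox-/- bars are the higher ones in the stretch, 76.9% and 84.7% against 67.4% and 68.8%, and the lower ones over the genome.

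Peak widths differed little as medians over each list. Stretch peaks had a median width of 394 and 386 bp in wt and 397 and 392 bp in Hox-/-, a difference of 4.5 bp (SD 5.45 over the 4 pairings). Genome-wide medians were 414 and 409 bp in wt and 402 and 398 bp in Hox-/-. Within the 383 members called in all 4, the medians were 460, 456, 496 and 519 bp in the same order, where the genome had 505, 506, 465 and 472 bp. In these members the Hox-/- peak was the wider one in 249, or 65.0%, by a median of 16.5 bp, against 33.7% and -21 bp genome-wide.

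Neither limit of the stretch is where single ranks step. The last region outside the lower limit, chr2:55405252-55405684, had a shift of -0.60, and the first inside, chr2:55414071-55414572, one of -0.16, with ranks of 112645 and 87277.5 in wt and 103051 and 119446.5 in Hox-/-. The last inside the upper limit, chr2:62440866-62441645, had a shift of 0.32, with ranks of 29032 and 43440.5 in wt and 31237 and 25921 in Hox-/-, and the first outside, chr2:62506455-62506873, one of -0.05. The genotypes overlapped at the last region inside, so single regions do not mark either limit by −log10 p. The running median there was 0.0162, but it takes in regions on both sides of the limit and cannot show a step. The 20 members nearest the lower limit had a median of 0.43 and the 20 regions below it -0.01, a step of 0.44 (SD 0.170 over the 4 pairings). At the upper limit these medians were 0.33 and -0.01, a step of 0.34 (SD 0.127). Because regions are sparse there, these sets of 20 reach 1816 kb into the stretch at the lower limit and 729 kb at the upper. The step at the upper limit fell to 0.11 without Hox-/- replicate 1, and the step at the lower limit was 0.01 when ranked by fold.

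The lower end was poorly resolved. A running median over 15 regions first reached 0.35 at chr2:56765663-56766414, 1.35 Mb inside the lower limit, and last at chr2:61811252-61812651, 0.629 Mb inside the upper. Close to a limit this median takes in flanking regions, so it cannot place an edge exactly. The 8 members below this core had a median shift of 0.05, the core of 5.05 Mb 0.37 and the 13 members above it 0.32. A search for the largest step between 20 regions on each side, added after the values were seen, placed the lower edge between positions 56084039 and 56114504 by −log10 p (a step of 0.66) and between 56114817 and 56440886 by background (0.84). By fold the lower edge fell where it did by −log10 p (0.45). The search placed the upper edge between 61803250 and 61804702 by fold (0.39) and between 62048098 and 62341481 by −log10 p (0.42). By background the upper edge fell between 62412333 and 62423137 (0.65). The 3 members above this last split still had background shifts of 0.48, 0.43 and 0.43, and the first region outside the upper limit had 0.05. The resolution is set by the spacing of regions. Among regions called in all 4, the median gap between neighbours was 5.74 kb, but 3 of the 5 largest gaps, of 574, 326 and 310 kb, lay between the Kcnj3 start and the beginning of the core, and the fourth, of 293 kb, lay near the upper limit, mostly over Slc4a10.

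**Figure D4:**
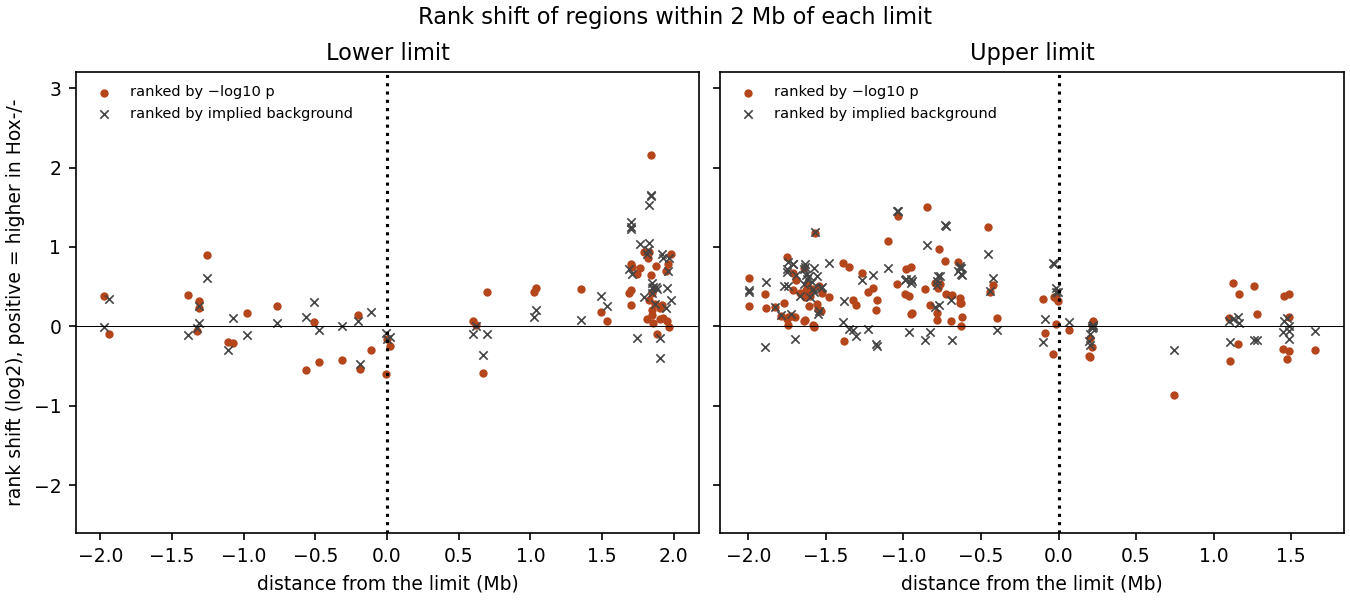
Rank shift (log2, positive where higher in Hox-/-) of the regions called in all 4 libraries within 2 Mb of the lower limit (left) and the upper limit (right), against the distance from the limit in Mb; circles rank by −log10 p and crosses by implied background. The first members inside the lower limit lie on both sides of 0, and the last 3 inside the upper limit have background shifts of 0.48, 0.43 and 0.43, against 0.05 at the first region outside.

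Ranked by −log10 p, medians over 1 Mb were close to each other in the upper 4 windows and varied more with the libraries paired below them, while medians over fewer regions varied throughout. In 7 successive windows of 1 Mb from the lower limit, the last of them slightly longer, the medians were -0.07, 0.43, 0.42, 0.31, 0.36, 0.37 and 0.36. The first window held only 6 regions with a peak in all 4, and 3 of these were above 0. In the others, with 35, 14, 100, 138, 54 and 36 regions, the medians spanned 0.31 to 0.43 and the shift was above 0 in 33, 14, 87, 119, 52 and 34. The 4 pairings of a wt with a Hox-/- library gave 0.34 to 0.63 in the second window and 0.51 to 0.69 in the third. In the fourth to the seventh window they stayed between 0.27 and 0.37. Ranked by background the medians were -0.12, 0.50, -0.08, 0.60, 0.72, 0.55 and 0.58. The third window, which holds Galnt5, Ermn, Cytip and Acvr1c, could not be read by this measure. All 14 of its regions lay at the background floor in both wt libraries and 11 in each Hox-/- library. Its fold shift was 0.54. The running median within the core ranged from 0.14, near chr2:60729865 in the interval between Itgb6 and Rbms1, to 0.73 at chr2:60384532-60385097, just upstream of Ly75.

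Of the 5 members with the best mean rank, 3 lay in gene bodies away from gene ends and 2 at gene starts. The best by mean rank, chr2:59231195-59232104 in the body of Pkp4 and 70345 bp from its nearest end, ranked 773 and 1021 in wt and 125 and 285 in Hox-/-, a shift of 2.23. Ranked by fold its shift was 0.12, and by background 2.13. A region in Baz2b, chr2:60196762-60197457, ranked 441, 1229.5, 318 and 457, and one in Rbms1, chr2:60870513-60871485, ranked 837, 882, 347 and 415, with shifts of 0.95 and 1.18. The Rbms1 region had a fold shift of -0.05. A start of the noncoding gene Gm13580, chr2:60411047-60411905, ranked 2413, 2789, 547 and 684, a shift of 2.08. A region in the body of Gpd2, chr2:57256332-57256859, ranked 5633 and 4509 in wt and 1407 and 901 in Hox-/-, a shift of 2.16. Of all these it had the largest fold shift, 0.56.

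The members with the lowest shifts were scattered along the stretch. The lowest shift, -0.58, was at chr2:56083077-56084039, 484932 bp from the nearest gene end, with ranks of 32783 and 21957 in wt and 40842.5 and 39617.5 in Hox-/- and a fold shift of -0.95. The next was -0.50 at chr2:59533484-59534821 between Dapl1 and Tanc1, where the ranks were 17402 and 25538 in wt and 27684.5 and 32016 in Hox-/-. In this region the background shift was 0.37 while the fold shift was -0.85. The remaining 3 of the 5 lowest, at chr2:62408150-62409229 in Dpp4, chr2:59400822-59401358 above Pkp4 and chr2:59779446-59780835 in Tanc1, had shifts of -0.35, -0.32 and -0.27. Their background shifts were 0.80, 0.50 and 0.75. At 4 of the 5 the background thus ranked higher in Hox-/-, as in most of the stretch, and the exception lay below the lower edge that the search by −log10 p found.

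The stretch has 29 protein-coding genes with an end inside it, and nearly all ends with a peak in every library ranked higher in Hox-/-. A region called in all 4 libraries lay within 1 kb of an end in 22 of them. In 21 of the 22 the best-ranked such region stood higher in both Hox-/- libraries, in 0 it stood higher in both wt libraries, and in 1, Slc4a10, the ranks overlapped. Genome-wide, 20.3% of regions within 1 kb of a gene end stood higher in both Hox-/- libraries, and 64.5% of all members did. The shift of these 22 ran from 0.11 to 2.34 with a median of 0.63. Since neighbouring genes share regions, these are fewer independent values than genes. By region, the 29 members within 1 kb of a gene end had a median of 0.58 and all 29 were above 0, against 0.34 for the 354 farther away. In percentile points these medians were close, 9.39 and 9.02, so the difference depended on the scale. On the log2 scale the medians in the strongest class were 0.71 at gene ends (16 regions) and 0.61 away from them (95). They were 0.56 (6) and 0.38 (123) in the middle class, and 0.11 (7) and 0.16 (136) in the weakest. Members in gene bodies (273) had a median of 0.31 and those between genes (110) 0.43, but in percentile points 9.24 and 8.42, so their order depended on the scale.

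Values are given by role, and no role group was compared with the other gene ends. The start shared by Acvr1, which encodes a type I receptor for activins and bone morphogenetic proteins, and Upp2, which encodes a uridine phosphorylase, lay in chr2:58565988-58567843 and ranked 41383.5 and 26211 in wt and 20376 and 22940 in Hox-/-, a shift of 0.61. Acvr1c, which encodes the related receptor ALK7, had at its outermost start ranks of 72936 and 78285 in wt and 49386 and 46566 in Hox-/-, a shift of 0.66. At both receptor genes the genotypes did not overlap. Tank, which encodes an adaptor of TRAF and TBK1 signalling, had at its downstream start ranks of 5555, 5842, 1221 and 3327, a shift of 1.499. At its upstream end the ranks were 74209.5, 97452.5, 56183 and 66796, a shift of 0.47. Within this gene the stronger region had the larger shift on the log2 scale, while the weaker one moved by more places.

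Among the transcription and chromatin genes, Nr4a2, an orphan nuclear receptor gene known from dopaminergic neurons, ranked 31236 and 26165 in wt and 16552.5 and 17392 in Hox-/- at its start, a shift of 0.75. The predicted gene LOC105244150 shares this region. Tbr1, a T-box factor gene of cortical neurons, ranked 66689, 69647, 45387.5 and 62625.5, a shift of 0.35. Rbms1, which encodes an RNA- and DNA-binding protein, ranked 36219, 44215, 33241.5 and 28985.5 at its start, a shift of 0.37. The shared start of Baz2b, a bromodomain gene, and Marchf7, which encodes a ubiquitin ligase, ranked 30022 and 31540 in wt and 14304 and 15254 in Hox-/-, a shift of 1.06. A second start of Baz2b inside its body, chr2:60124594-60125886, had a shift of only 0.16, again without overlap.

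Cell-surface genes held the largest and some of the smallest shifts. Ly75, which encodes the endocytic lectin receptor DEC-205 of dendritic cells, ranked 1890 and 2049 in wt and 380 and 399 in Hox-/- at its start, a shift of 2.34. Its fold shift was 0.21, its pileup shift 3.19 and its background shift 2.22. At this start, printed above, pileup and background thus differed more in rank than fold. Cd302, which encodes another lectin receptor, ranked 34753, 26539, 17219 and 21018, a shift of 0.67. Pla2r1, the phospholipase A2 receptor gene, ranked 16971.5, 14907, 14215 and 12907, a shift of 0.23. Itgb6, which encodes an integrin beta subunit, had no such region at an end but had one at its inner start, which ranked 47331, 40268, 33390 and 38110. In all of these both Hox-/- ranks were better. Dpp4, which encodes a serine protease of the cell surface, ranked 63860 and 69427.5 in wt and 42966 and 61832 in Hox-/-, a shift of 0.37. Hox-/- replicate 2 lay close to wt replicate 1 there.

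Junction, scaffold and metabolic genes followed. The region over the neighbouring starts of Pkp4, a plakophilin gene of cell junctions, and Ccdc148, chr2:59160053-59160978, ranked 3752 and 2889 in wt and 1616 and 851 in Hox-/-, a shift of 1.49. Tanc1, which encodes a postsynaptic scaffold, ranked 22962, 19722, 9272 and 14365, a shift of 0.88. Wdsub1 ranked 15675, 20793.5, 11766 and 12417, a shift of 0.58. In these 3 regions the genotypes were apart. Gpd2, which encodes the mitochondrial glycerol-3-phosphate dehydrogenase, ranked 7555, 8791, 6291 and 6692, a shift of 0.33, although its background shift was 1.53 and its fold shift -0.22. Psmd14, which encodes the deubiquitinase subunit of the proteasome lid, had at its start, chr2:61711164-61712089, ranks of 25128 and 26181.5 in wt and 12972 and 16086 in Hox-/-, a shift of 0.83 with a fold shift of 0.16. A better-ranked region just inside the gene, chr2:61712560-61712982, ranked 22447, 21748, 19766 and 14035.5, a shift of 0.41 with a fold shift of -0.24.

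**Figure D5:**
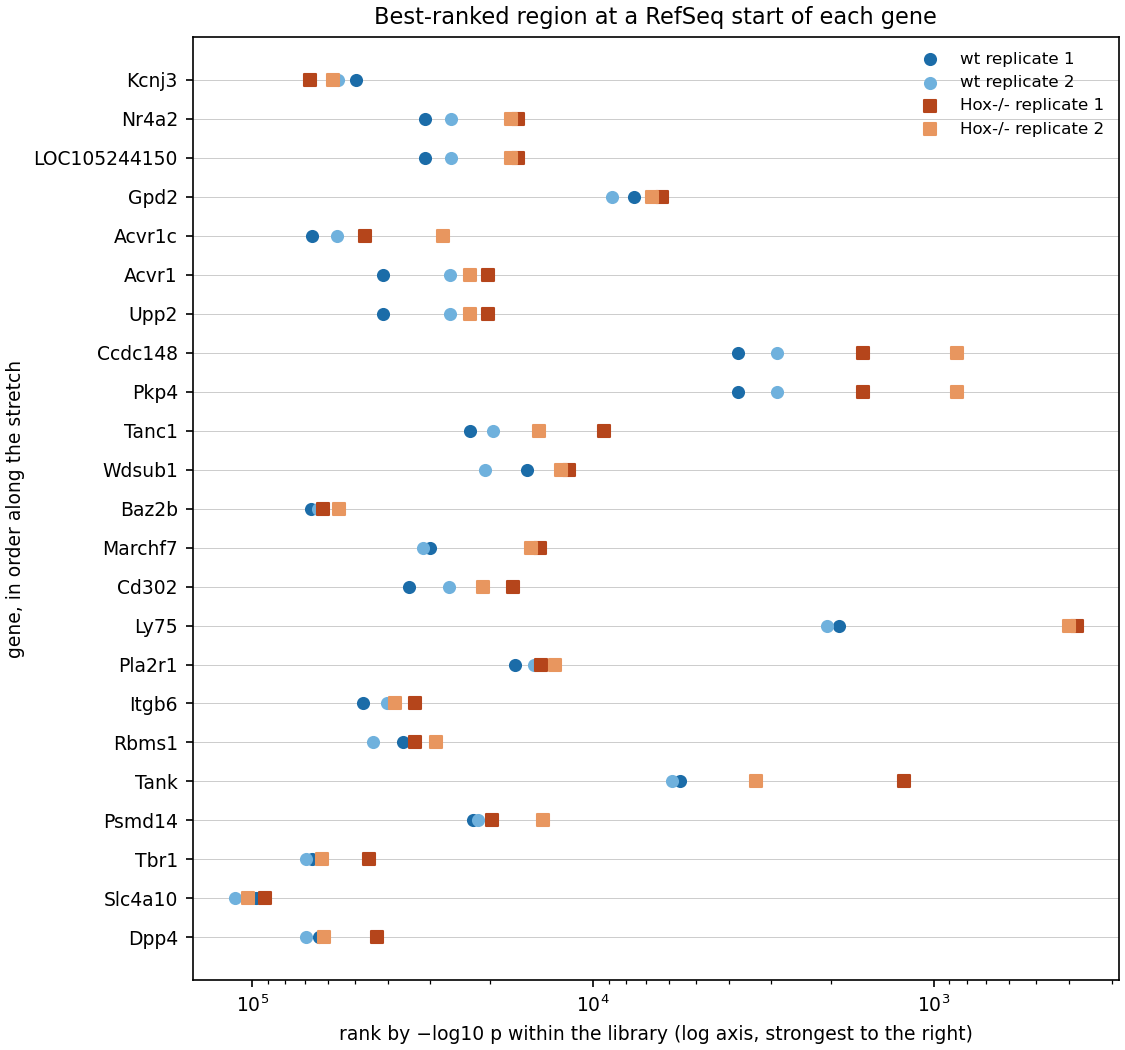
Rank by −log10 p within each library (log axis, stronger to the right) of the best-ranked region called in all 4 libraries within 1 kb of a RefSeq start, for each of the 23 genes of the stretch that have one, in order along the stretch; circles are wt and squares Hox-/-. Both squares lie to the right of both circles in 21 genes, in Slc4a10 they overlap, and in Kcnj3 they lie to the left.

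At the edges the values were mixed, and Dpp4, whose start is the nearest to the upper limit, stood higher in both Hox-/- libraries as given above. Kcnj3, which encodes a G protein-gated potassium channel subunit, crosses the lower limit, and the start in the promoter table lies inside the stretch. This start, chr2:55435717-55436785, ranked 49636.5 and 55929.5 in wt and 67933 and 57898 in Hox-/-, a shift of -0.25 and the only gene start of the 23 where both wt ranks were better. Slc4a10, a bicarbonate transporter gene near the upper limit, ranked 97542, 112775.5, 91657 and 103088, a shift of 0.11 with overlap. Below the stretch the start of Galnt13, a glycosyltransferase gene, ranked 49974.5, 45013, 32307 and 54663.5, which overlapped, and that of Rprm ranked 5132, 5741.5, 6088 and 5288. Above it Ifih1, the gene of the RNA sensor MDA5, ranked 84340, 45889, 49952.5 and 95289.5, and Gca ranked 11550, 16388, 15782 and 10851, both with overlap. Farther up, Kcnh7, another potassium channel gene, ranked 39433.5 and 24700.5 in wt and 55895.5 and 58088.5 in Hox-/-, a shift of -0.87. The 7 genes of the stretch without a region in all 4 libraries at an end were Kcnj3, Gm52512, Ermn, Cytip, Dapl1, Gm13570 and Itgb6. Galnt5, a glycosyltransferase gene, had one at its 3′ end only, with ranks of 104514.5, 104475.5, 66933 and 55152.

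All 29 genes matched the RefSeq promoter table, with 40 windows of 300 bases, 250 before and 50 after a start. Some windows of 1 gene overlap, such as those of Tank, so the shares below are descriptions of few promoters. The GC box was in 18 of the 40 (45%), against 35.7% of all 32851 windows of the table. The CCAAT box was in 14 (35%, against 37.4%) and the TATA box in 9 (22.5%, against 13.6%). The ETS core was in 3 (7.5%, against 8.86%). The octamer ATGCAAAT, the cyclic AMP element TGACGTCA and the NRF1 core GCGCATGCG were each in 1 (2.5%, against 1.74%, 1.79% and 1.75%). Both strands were searched, and none of these motifs contains another. The 24 windows whose start lay inside a region called in all 4 had a median of 24 CpG, and 16 of them held a GC box. The other 16 had a median of 5 CpG, and 2 held a GC box. All windows of the table had a median of 7. A match describes letters and not a bound site.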

How the data were processed

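Chromatin accessibility was measured by ATAC-seq in 2 wt and 2 Hox-/- libraries of mouse embryonic stem cells. The authors deposited 1 narrowPeak list per library, so replicates were not pooled. Per the submitters' processing notes, the build was mm10 and the tools included cutadapt 4.8, Bowtie2 2.5.0, Picard 2.18.2, MACS2 2.2.9.1, bedtools 2.30.0 and deepTools 3.5.4, and the notes used here give no roles or settings. Each deposited line has a fold over background (a ratio), a −log10 p, a −log10 q and a summit offset. These are the authors' values. They were used within each list, to rank or filter peaks and to solve for the pileup, the background and a relative depth. Whether reads were shifted for the transposase is not given in the sources used here.

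Intervals overlapping by at least 1 bp were merged, and a region took its strongest line. Ranks were taken over the regions called in all 4 libraries, with ties sharing a mean rank. Libraries were grouped by genotype label. Pileup and background were solved from fold and p under a Poisson model with 1 added to both. The depth in reads is unknown. Gene ends and starts are from RefSeq GRCm38.p6, the assembly that mm10 is based on. No test was run, because the members were chosen on this contrast. The members and lists were chosen with earlier results of these data known. Genes were named by role list or, for full values, as the 10 with the best mean rank at an end, those nearest the limits and those without a region. Regions were named as the 5 of best mean rank, the 5 of largest and smallest shift and those at the limits.

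Alternatives changed the ranking measure, the regions ranked, the scale, the summit, the limits, the windows and the libraries used. Python 3.11.15, numpy 2.4.6, pandas 2.3.3 and scipy 1.17.1 were used, and the ranking was tested on simulated lists.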

Additional observations from a re-analysis of the deposited data

How the results depend on the processing

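The median shift of the stretch stayed above 0 under every alternative tried. It was 0.12 by fold, 0.43 by implied pileup, 0.61 by implied background (added after the data were seen), 0.45 with ranks in the whole list, 0.30 with the first summit, 0.53 among regions above the median strength, 0.38 at −log10 q of at least 5, 9.06 percentile points, and 0.34 with limits extended by 250 kb. The share with both Hox-/- ranks better was 36.3% by fold, 79.6% by pileup, 84.1% by background, 52.2% with the first summit and 79.6% above the median strength. Without 1 library each, the shift was 0.32 to 0.35, the share 73.4% to 79.4%, the lower step 0.27 to 0.50 and the upper step 0.11 to 0.39, the lowest value being without Hox-/- replicate 1. With 1 library fewer a region avoids overlap more easily.

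The lower step was 0.0143 by fold, 0.0316 with the first summit, 0.21 by background and 9.64 in points. The upper step was 0.13 by fold, 0.52 above the median strength, 0.50 at −log10 q of at least 5, 0.64 by background and 8.26 in points. The lowest window, with 6 regions, reversed to 0.0266 with the first summit and to 0.0656 and 0.0196 without wt replicate 2 and Hox-/- replicate 2 (range -0.177 to 0.0656), and was -0.25 above the median strength and -3.63 points. The highest window was 0.54 by fold, 0.50 by pileup, 0.56 in the whole list, 0.78 above the median strength, 12.9 in points, 0.78 with windows of 0.5 Mb, 0.72 by background and 0.49 to 0.69 without 1 library. Gene ends had 0.21 and other regions 0.12 by fold, 0.66 and 0.41 by pileup, 0.65 and 0.44 in the whole list, 0.45 and 0.27 with the first summit, 0.67 and 0.52 above the median strength, 9.39 and 9.02 in points, and 0.79 and 0.60 by background. Other regions had 0.37 at −log10 q of at least 5, and gene ends 0.41 within 2.5 kb. Without 1 library, gene ends had 0.48 to 0.61 and other regions 0.31 to 0.34.

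With the 100000 highest peaks of each list, wt-only regions numbered 0, the difference in share called was 22.3 points and the width difference reversed to -25 bp. Without 1 library, regions called in 1 genotype only numbered 68 to 112 for Hox-/- and 9 to 30 for wt, as fewer libraries must then agree, the share differed by 8.79 to 16.6 points and the width by 0.5 to 8.5 bp. The replicate block, which compares same-numbered libraries only, gave a shift of 0.33, a share of 71.8%, a highest window of 0.66 and 0.32 away from gene ends. Whether libraries of the same number were handled together was not given. Across regions, the differences between replicates 1 and 2 of wt and of Hox-/- had a correlation of 0.00402 over the genome and 0.101 in the stretch. A low correlation cannot show that they were handled apart. Leaving aside the percentile scale and the lowest window, all 82 log2 shifts and steps under the alternatives kept the sign reported. Since the limits were chosen on this contrast in the same lists, a kept sign is not evidence for it. The cause of the changes under the alternatives was not tested. The unknown read depth, 2 libraries per genotype and sparse regions near the lower limit set what can be resolved.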

Other observations

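Besides its 29 protein-coding genes, the stretch holds ends of 53 other annotated genes, 27 of them lncRNAs, 21 pseudogenes, 2 snoRNAs, 2 tRNAs and 1 microRNA. The microRNA, miR-195b, is shown because its seed, bases 2 to 8 in capitals, is the one that marks the miR-15/16 family, and because it lies at the beginning of the core, at chr2:56785825-56785846 on the plus strand of GRCm38.p6.
mmu-miR-195b: uAGCAGCAcagaaauaguagaa
The nearest merged region, chr2:56765663-56766414, lay 19.4 kb away and was called in all 4 libraries, with ranks of 107913 and 106245 in wt and 63554 and 93374.5 in Hox-/-. Both Hox-/- ranks were better there, in the weaker part of the list.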
